A study of Rattus norvegicus with 12 samples.

Results

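The miRs described are the members of 3 related miR clusters, miR-17-92, miR-106a-363 and miR-106b-25, in dorsal root ganglia (DRG) of rats after a spared nerve injury (SNI). They were chosen by assay name alone, as the TaqMan assays for mmu-miR-19a, mmu-miR-19b, mmu-miR-20a, mmu-miR-20b, mmu-miR-92a, mmu-miR-93, mmu-miR-106a and mmu-miR-106b (called by their numbers without the prefix below), and are 8 of the 154 miRs of the Ct table. All 8 were detected in all 12 arrays, and the table holds only miRs that were. Each array measured total RNA of a single DRG from an adult male Sprague-Dawley rat collected at Day 23 after surgery. In Sural-SNI the common peroneal and tibial branches of the sciatic nerve were tied and cut and the sural branch was spared. In Tibial-SNI the common peroneal and sural branches were cut and the tibial branch was spared, and in Sham the nerve was laid open with no branch tied or cut. Each group had 4 arrays, and for either ganglion, L3-DRG or L4-DRG, its 2 arrays carry the numbers replicate 1 and replicate 2. In rat the L3-DRG holds neurons of the saphenous nerve, which was not cut in either injury, and the L4-DRG holds neurons of the sciatic nerve, so a whole L4-DRG mixes cut and spared neurons with glia, vessels and immune cells. The sources used here do not say which rat a DRG came from, so p-values measure the spread between these 12 samples, which may include several DRG of one rat. The assays are of mouse sequence and were used on rat RNA.

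MiRs bind target mRNAs mainly through the seed, the stretch near their 5′ end, and lower the output of those mRNAs. The miR-17-92 cluster is transcribed as one precursor that is cut into several hairpins, is switched on by MYC and E2F factors, and is best known for promoting proliferation and survival. The miRs of the miR-17 seed restrain cell cycle inhibitors such as p21 and the TGF-beta receptor, and miR-92a restrains vessel growth. In sensory neurons of the rat the cluster has been tied to lasting allodynia after nerve injury through repression of potassium channels.

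The mature sequences show which members the assays can be grouped with by seed. They are those of rat miRs in RefSeq (build GRCr8), 5′ to 3′, with the seed (bases 2 to 8) in capitals. Of the 8 members, 7 had a rat sequence of their own name, and miR-17, the cluster relative that is also on the table, is shown because the rat gene Mir106a has it as its mature product.
miR-20a: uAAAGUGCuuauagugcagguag
miR-20b: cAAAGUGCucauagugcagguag
miR-93: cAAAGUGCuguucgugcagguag
miR-106b: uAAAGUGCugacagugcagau
miR-17: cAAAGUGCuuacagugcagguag
miR-19a: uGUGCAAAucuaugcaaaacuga
miR-19b: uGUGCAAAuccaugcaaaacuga
miR-92a: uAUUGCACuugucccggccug

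The members thus fall into 3 seeds. The AAAGUGC seed is shared by miR-17, miR-20a, miR-20b, miR-93 and miR-106b, the GUGCAAA seed by miR-19a and miR-19b, and miR-92a has the seed AUUGCAC. MiR-19a and miR-19b differ by 1 substitution outside the seed, U11C, with positions counted from 1 at the 5′ end and the base of the first-named miR first. MiR-20a differs from miR-20b by U1C and U10C, and from miR-17 by U1C and U12C. The rat gene Mir106a, whose 5′ arm is rno-miR-17-5p, has a mature sequence identical to that of miR-17 from the miR-17-92 cluster. RefSeq holds no mature sequence named rno-miR-106a, and the sequence of the mouse miR-106a that the assay was designed for is not given here.

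The miR-17-92 cluster has 6 hairpins over 785 bases on the plus strand of chromosome 15 (chr15:98587848-98588632), and miR-17, miR-19a, miR-20a, miR-19b and miR-92a of it have assays on the table. The miR-106a-363 cluster has 5 hairpins over 871 bases on the minus strand of chromosome X (chrX:137342777-137343647). The miR-106b-25 cluster has 3 hairpins over 494 bases on the minus strand of chromosome 12 (chr12:22156641-22157134), inside the span of Mcm7 (chr12:22155921-22163320), a protein coding gene of the replicative helicase read from the same strand. MiR-19b is encoded at chr15:98588486-98588508 and chrX:137343070-137343092, and miR-92a at chr15:98588602-98588622 and chrX:137342945-137342965, with identical mature sequences. The assays of miR-19b and miR-92a therefore read both clusters together, miR-19a and miR-20a belong to the miR-17-92 cluster, miR-20b to miR-106a-363, and miR-93 and miR-106b to miR-106b-25.

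**Figure D1:**
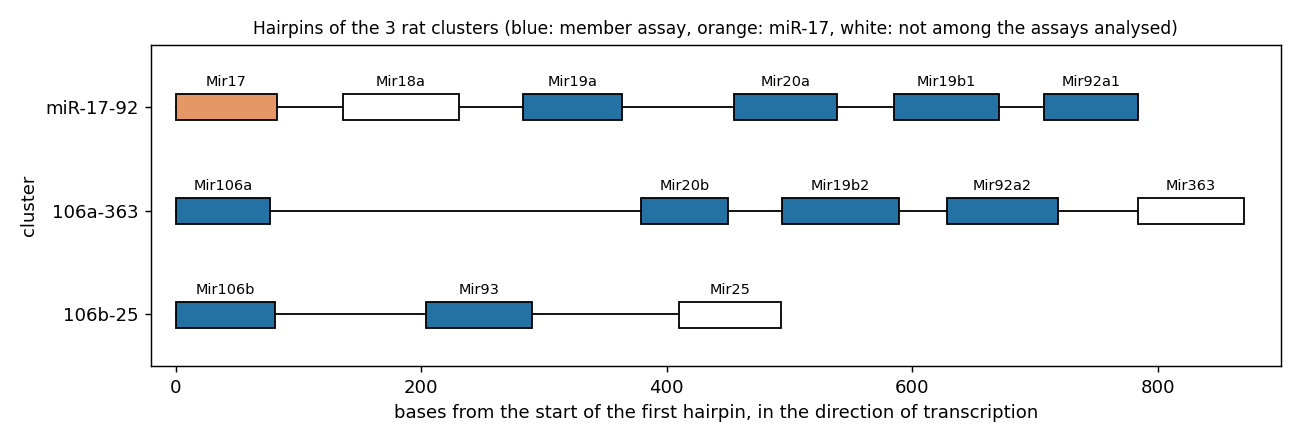
Hairpins of the miR-17-92, miR-106a-363 and miR-106b-25 clusters in the rat, drawn to scale from the start of the first hairpin in the direction of transcription (x axis, bases; RefSeq). Blue boxes have an assay among the 8 members, the orange box is miR-17, and the white boxes (Mir18a, Mir363 and Mir25) were not among the assays analysed.

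Levels were read as Ct, the number of PCR cycles a well needed to reach a set fluorescence, so on this log2 scale fewer cycles mean more of the miR. The 6 arrays of replicate 1 had a mean Ct over the 154 miRs of 29.9 and the 6 of replicate 2 one of 27.8, while the reference MammU6 went the other way, with means of 17.6 and 18.5. Arrays of the same DRG level and number deviated together from their group means, and what a number stands for is not given in the sources used here. Of the marker miRs of cell types, both sensory neuron markers on the table, miR-182 and miR-183, were detected in all arrays at a mean −ΔCt (minus the difference in Ct to the mean of the references MammU6, snoRNA135 and U87) of −0.48 to −0.13 in Sham. Markers of leukocytes (5 of 6 listed), endothelium (2 of 2), smooth muscle (2 of 2) and skeletal muscle (3 of 4) were on the table too. So were markers of neurons (2 of 3), glia (1 of 2) and red blood cells (1 of 3). The table holds only miRs detected in all arrays, so their detection was fixed in advance and does not show the make-up of the samples. By the methods each sample was a single DRG with its roots removed. In such samples fewer cells of a type and less RNA per cell cannot be told apart.

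Over the 12 arrays miR-19b had the lowest mean Ct of the members and miR-106b the highest. MiR-19b had a mean Ct of 25.8 over the 12 arrays, rank 22 of the 154 miRs, and miR-106a one of 27.7, rank 54. MiR-20a (28.9), miR-92a (29.0), miR-20b (29.4), miR-19a (29.5) and miR-93 (29.6) lay close together, and miR-106b had a mean Ct of 30.9, rank 117. MiR-19b had a lower Ct than miR-106a in 12 of 12 arrays, and miR-106a than miR-20a in 11 of 12. From miR-92a to miR-93 the order of neighbours held in only 7 of 12 arrays, and miR-93 was below miR-106b in 9 of 12. MiR-20a was below miR-92a in 6 of 12 arrays, which were the 6 of replicate 2. Its mean Ct in replicate 1 was 32.07, beside 30.07 for miR-92a and 32.03 for miR-106b. In replicate 2 it was 25.82, beside 27.99 for miR-92a. Assays differ in efficiency, so this is an order of Ct and not of the number of molecules.

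**Figure D2:**
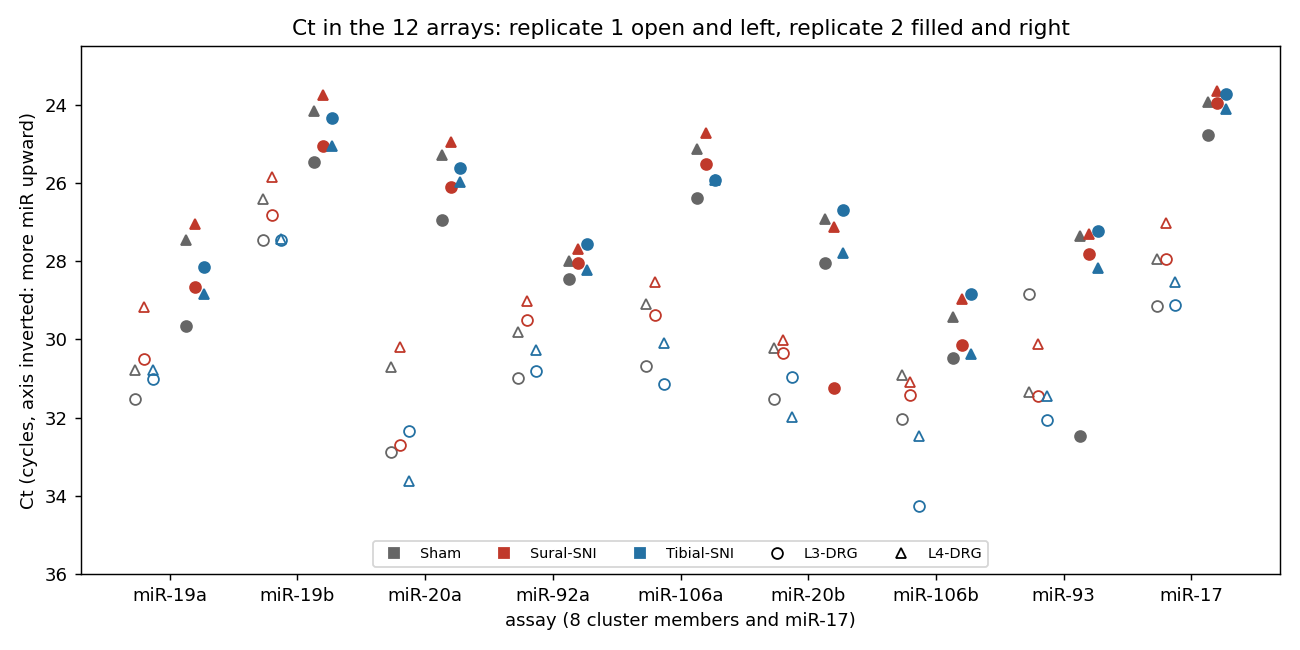
Ct (cycles, axis inverted so that more miR is upward) of the 8 members and miR-17 in each of the 12 arrays, with replicate 1 open and to the left, replicate 2 filled and to the right, groups by colour and DRG level by symbol. The Ct of miR-20a was 6.25 cycles higher on average in replicate 1, while miR-93 and miR-20b each have an array of replicate 2 with a Ct as high as in replicate 1.

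The members separated by replicate number far more than by injury, and miR-20a did so most. In replicate 1 its Ct was 32.87 and 30.70 in Sham, 32.70 and 30.20 in Sural-SNI, and 32.34 and 33.62 in Tibial-SNI, in L3-DRG and L4-DRG. In replicate 2 its Ct was 26.94 and 25.30 in Sham, 26.10 and 24.97 in Sural-SNI, and 25.62 and 25.98 in Tibial-SNI. The shift between the numbers was 6.25 cycles for miR-20a, the second largest of the 154 miRs, against a median of 2.05 over all. MiR-106a (4.22, rank 16) and miR-17 (4.26, rank 15) also shifted more than most, and the other 6 members shifted by 2.07 (miR-92a) to 2.87 (miR-20b). The Ct of all 6 arrays of replicate 1 lay above all 6 of replicate 2 for miR-19b, miR-20a, miR-92a, miR-106a and miR-106b, 5 of the 8 members, and for 55.2% of the 154 miRs. It would also hold for miR-93, and so for 6 of 8, if its 2 L3-DRG Sham values, which are described further below, were exchanged. The log2(fold change) used below is minus ΔΔCt against Sham of the same ganglion and number, so it compares arrays of one number only.

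Within an array some pairs of members kept a narrow distance in Ct and others of a shared seed did not. MiR-19a was 3.69 ± 0.37 cycles (SD, 12 arrays) above miR-19b, and miR-106a was 1.56 ± 0.34 above miR-17, while miR-20a and miR-20b differed by −0.46 ± 2.11. The distance to miR-17 was 2.79 ± 1.24 for miR-20a and 3.25 ± 1.39 for miR-20b. On Ct centred on the mean of all miRs of the array, Pearson's r over the 12 arrays was 0.96 for miR-106a with miR-17, 0.93 for miR-20a with miR-17 and 0.75 for miR-19a with miR-19b. After the mean of each number was also removed these became 0.47, −0.14 and 0.75, so that the likeness of miR-20a to miR-17 lay in the shift between the numbers. For miR-92a with miR-17 r was −0.00 over the 12 arrays and 0.78 within number. For miR-93 with miR-106b, which come from one precursor, r was 0.26 and 0.24 with the deposited values and 0.08 and −0.15 with the L3-DRG Sham values of miR-93 exchanged. Outside the members, the miRs most like the mean of the 8 members on this scale were miR-26a (r = 0.92), miR-301b (0.91), miR-30d (0.90), miR-125b-5p (0.89) and miR-652 (0.88), and within number these fell to between 0.21 and 0.64. The points share their array and its RNA input, and these correlations are descriptions.

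No member differed from Sham past the threshold in either injury, and miR-92a was the one member above Sham in all 8 SNI arrays. With limma over all 154 miRs and an adjusted p under 0.05, 0 of 8 members were called in Sural-SNI against Sham (0% of the 154 miRs), in Tibial-SNI against Sham (0%) or in both SNI groups against Sham (0%). At an unadjusted p under 0.05 again no member passed, beside 0%, 0.649% and 1.3% of all miRs. These fits had no term for the number, so their spread holds the shift between the numbers, and the block fits are given further below. The lowest adjusted p of a member was 0.995, and over the alternatives of the 3 comparisons the lowest lay between 0.428 and 1.00. The 3 comparisons share the 4 Sham arrays. The median log2(fold change) over all miRs was 0.21 in both SNI groups, so all values are to be read against it.

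For miR-92a, the log2(fold change) in Sural-SNI was 1.14 and 0.29 in the L3-DRG arrays (replicate 1 and 2) and 0.35 and 0.09 in the L4-DRG arrays. In Tibial-SNI it was 0.85 and 0.31 in L3-DRG and 0.62 and 0.28 in L4-DRG. All 8 SNI arrays were thus above their Sham array, which held for 3.9% of the 154 miRs. The highest values were in the L3-DRG of replicate 1. For every miR, the Sural-SNI and Tibial-SNI arrays of a ganglion and number subtract the same Sham array. The 8 values thus rest on 4 Sham arrays, and counts such as 8 of 8 are not of independent values. With all miRs averaged as the reference the count for miR-92a was still 8 of 8, with snoRNA135 alone it was 7, and with MammU6 alone 6. The mean was 0.47 ± 0.46 (SD, n = 4) in Sural-SNI and 0.51 ± 0.27 in Tibial-SNI. With 1 array left out these ranged from 0.22 to 0.64 and from 0.26 to 0.69, in fits with no term for the number. Both were lowest without L3-DRG Sham replicate 1. In the fit that blocks on ganglion and number, both SNI groups were 0.49 above Sham (SE 0.186), with a limma adjusted p of 0.675.

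MiR-17, the relative on the table, was also above Sham in 8 of 8 SNI arrays (6 of 8 with MammU6 alone as the reference). Its log2(fold change) was 0.86, 0.71, 0.48 and 0.04 in Sural-SNI and 0.68, 0.45, 0.49 and 0.33 in Tibial-SNI (L3-DRG replicates 1 and 2, then L4-DRG replicates 1 and 2, the order of all series of 4 values that follow). The block fit gave 0.51 (SE 0.168) in both SNI groups, with a limma adjusted p of 0.675. The assays of miR-18a, miR-18b, miR-25, miR-32, miR-92b and miR-363, other relatives by cluster or seed, were not analysed here.

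MiR-19a had the highest mean of the members in Sural-SNI and was above Sham in 7 of 8 SNI arrays under every reference. The share of all miRs that reached 7 of 8 was not counted. Of the 154 miRs, 78.6% had a difference above 0 in both SNI groups against Sham. The log2(fold change) of miR-19a was 0.67, 0.86, 1.19 and 0.19 in Sural-SNI. In Tibial-SNI it was 1.16, 0.90, 1.11 and −0.87, so that 1 L4-DRG array lay far below the other 3. The means were 0.73 ± 0.42 in Sural-SNI and 0.57 ± 0.97 in Tibial-SNI. With 1 array left out they ranged from 0.39 to 1.19 and from 0.24 to 1.04, in fits with no term for the number. In both cases the ends were the fits without L4-DRG Sham replicate 1 and without L4-DRG Sham replicate 2. MiR-19b, of the same seed, had smaller values, with 0.30, 0.30, 0.11 and 0.20 in Sural-SNI and 0.63, 0.52, 0.08 and −0.39 in Tibial-SNI. Its means of 0.23 ± 0.09 and 0.21 ± 0.47 lie at the median of all miRs, and with all miRs averaged as the reference its mean over the 8 SNI arrays was 0.02.

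In Sural-SNI miR-19a, miR-19b, miR-92a and miR-106a, 4 of the 8 members, were above Sham in 4 of 4 arrays, as were 10.4% of all miRs. In Tibial-SNI this held for miR-92a alone, 1 of 8, and for 18.2% of all miRs. The members' median difference from Sham, 0.35 for Sural-SNI and 0.22 for Tibial-SNI, stood beside 0.15 and 0.23 over all miRs. Whether these counts differ between the injuries was not tested as such. Leukocyte markers (5 of 6 on the table, all detected) had a mean log2(fold change) of 0.35 ± 0.30 in Sural-SNI, beside 0.36 ± 0.41 in Tibial-SNI, and their mean −ΔCt per array spanned −3.03 to −1.35 in Sham, −2.31 to −0.88 (Sural-SNI) and −2.11 to −1.21 (Tibial-SNI). The red blood cell marker miR-486 (1 of 3 listed) had 0.37 ± 0.87 in Sural-SNI and 0.23 ± 0.89 in Tibial-SNI. Endothelial markers (2 of 2) had −0.03 ± 0.29 and 0.37 ± 0.37. Sensory neuron markers (2 of 3) had −0.19 ± 0.59 and −0.12 ± 0.46, and neuron markers (2 of 3) −0.19 ± 0.43 and −0.55 ± 0.88. Glia, smooth muscle and skeletal muscle are given further below. The part of these lists in the values of miR-92a, miR-19a and miR-17 was not tested.

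With ganglion and number as the block, 1 of 8 members passed an unadjusted p under 0.05 in each comparison with Sham. It was miR-106a in Sural-SNI (0.51, SE 0.216), beside 6.49% of all miRs. It was miR-92a in Tibial-SNI (0.51, SE 0.214), beside 9.74%, and in both SNI groups, beside 5.19%. No adjusted p of a member in these block fits was below 0.428.

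**Figure D3:**
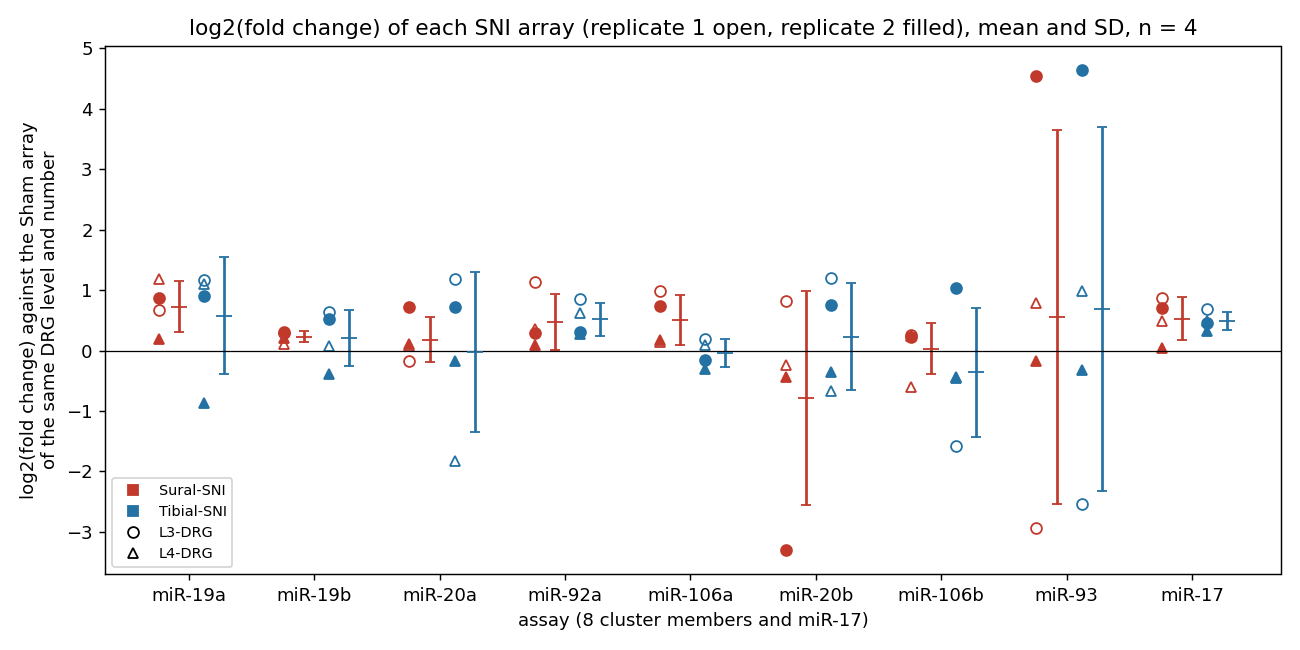
log2(fold change) of the 8 members and miR-17 in the 4 Sural-SNI (red) and 4 Tibial-SNI (blue) arrays against Sham of the same ganglion and number (line at 0), with the mean and SD beside the points. All 8 points of miR-92a and of miR-17 lie above 0, the Tibial-SNI points of miR-106a (−0.30 to 0.19) lie mostly below those of Sural-SNI (0.14 to 0.98), and the values of miR-93 range from −2.94 to 4.64.

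Between the 2 injuries, miR-106a was the member with the smallest p, and it was lower in Tibial-SNI. Its log2(fold change) was 0.98, 0.73, 0.14 and 0.18 in Sural-SNI. In Tibial-SNI it was 0.19, −0.15, 0.09 and −0.30. The Sural-SNI arrays thus lay above 0 and the Tibial-SNI arrays around it, with an overlap between 0.14 and 0.19. The means were 0.51 ± 0.41 and −0.04 ± 0.23 (SD, n = 4), and the difference was −0.55 (SE 0.296, 95% interval −1.22 to 0.12). It was lower in Tibial-SNI in 4 of 4 pairs of the same level and number, by −0.78 and −0.88 in L3-DRG and by −0.05 and −0.48 in L4-DRG, which held for 5.19% of all miRs. The opposite, higher in Tibial-SNI in 4 of 4 pairs, held for no member and for 9.09% of all miRs. An exact permutation test over the 70 splits gave a two-sided p of 0.086, where the smallest possible is 0.029.

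No member was called in Tibial-SNI against Sural-SNI at an adjusted p under 0.05 with limma (0 of 8, and 0.649% of all miRs), and none passed an unadjusted two-sided p under 0.05 (2.6% of all miRs). The adjusted p of miR-106a was 0.995, and 0.776 in the block fit, where its SE was 0.222. Over the alternatives the lowest adjusted p of a member ranged from 0.776 to 0.998. The study's one-tailed threshold, a p under 0.09, was read here in whichever direction a miR differed. That is looser than a test in a direction set beforehand. At this threshold miR-106a passed, 1 of 8 members, as did 10.4% of all miRs and 22.1% in the block fit. It no longer passed with the mean of both Sham arrays of a level (one-tailed p of 0.287 by limma), with all 12 arrays in one fit (0.307) or with snoRNA135 (0.127) or U87 (0.0928) alone as the reference, or without any one of 4 arrays (L3-DRG Sural-SNI replicate 1, L3-DRG Sural-SNI replicate 2, L4-DRG Tibial-SNI replicate 2 or L3-DRG Sham replicate 2), while its difference stayed between −0.72 and −0.39 whichever of the 12 arrays was left out. The glial marker on the table, miR-338-3p (1 of 2 listed), had a mean log2(fold change) of 0.54 ± 0.72 in Sural-SNI, beside −0.48 ± 1.48 in Tibial-SNI, and its −ΔCt spanned −7.57 to −3.25 in Sham, −6.10 to −3.22 (Sural-SNI) and −10.3 to −2.97 (Tibial-SNI). Other lists differed the opposite way, with 0.79 ± 0.44 in Tibial-SNI and −0.18 ± 0.45 in Sural-SNI for smooth muscle (2 of 2 on the table, mean −ΔCt per array of −3.21 to −1.58 in Sham, −3.45 to −1.12 in Sural-SNI, −2.20 to −0.74 in Tibial-SNI). Skeletal muscle (3 of 4, with miR-1 entered by both a mouse and a rat assay) had 0.61 ± 1.38 in Tibial-SNI and −0.55 ± 0.31 in Sural-SNI. Its mean −ΔCt spanned −3.23 to −2.64 in Sham, −3.73 to −3.12 in Sural-SNI and −3.52 to −0.06 in Tibial-SNI. The study had reported miR-1, miR-133b, miR-143 and miR-145 as higher in Tibial-SNI on these same arrays. The direction of both muscle lists was thus known beforehand. The part of these lists in the miR-106a values was not tested.

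MiR-17, the mature product of the rat Mir106a gene in RefSeq, had a difference between the injuries of −0.04 (SE 0.272, 95% interval −0.66 to 0.58). The Ct distance of miR-106a to miR-17 within an array, which needs no reference assay, was 1.54, 1.60, 1.16 and 1.20 cycles in Sham. It was 1.42, 1.58, 1.51 and 1.07 in Sural-SNI. In Tibial-SNI it was 2.03, 2.20, 1.56 and 1.83, above every array of the other groups except that its lowest value lay just under the highest of Sham and of Sural-SNI. The means were 1.38 ± 0.23, 1.40 ± 0.23 and 1.91 ± 0.27 (SD, n = 4). The distance was larger in Tibial-SNI than in Sural-SNI in 4 of 4 pairs, by 0.60 and 0.62 in L3-DRG and by 0.05 and 0.77 in L4-DRG, and larger than in Sham in 4 of 4, by 0.40 to 0.63. The difference from Sural-SNI was 0.51 cycles (0.40 to 0.63 with each SNI array left out) and from Sham 0.53, each with an exact two-sided permutation p of 0.057. Over the 16 pairs of assays with a shared seed that were compared, the Benjamini-Hochberg adjusted exact permutation p was 0.686 against Sural-SNI and 0.914 against Sham. This comparison was chosen after the values had been seen. It uses the same Ct values as the miR-106a and miR-17 differences above, so it adds no separate support to them. Whether the mouse miR-106a assay reads rat miR-17 was not tested.

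**Figure D4:**
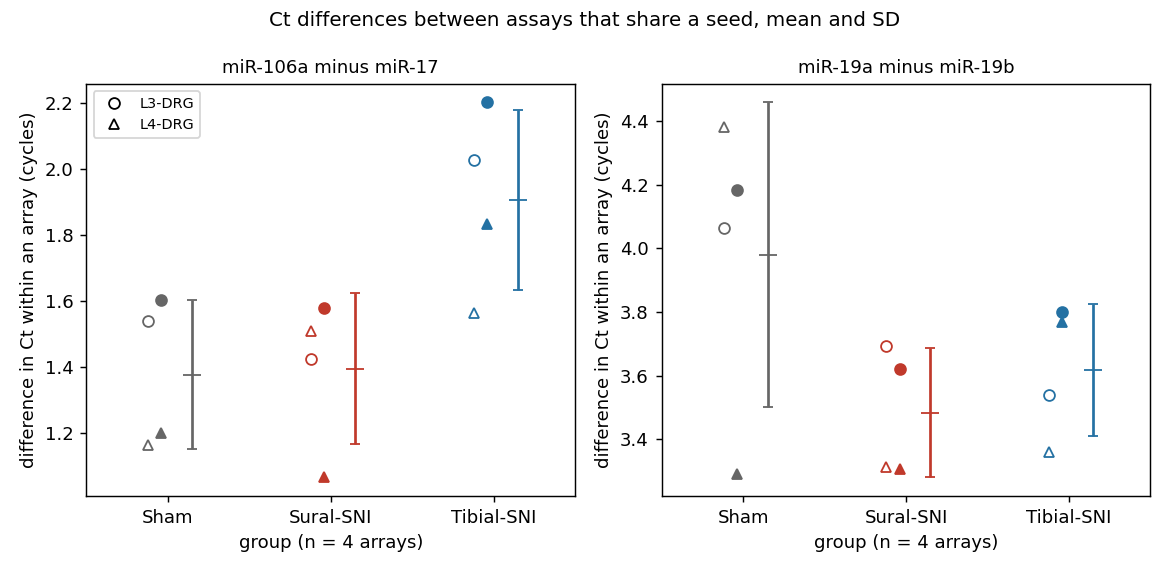
Difference in Ct within an array (cycles) of miR-106a minus miR-17 (left) and of miR-19a minus miR-19b (right), for 4 arrays of each group (replicate 1 open, replicate 2 filled), with the mean and SD beside the points. The distance of miR-106a to miR-17 was 1.56 to 2.20 in Tibial-SNI, 1.07 to 1.58 in Sural-SNI and 1.16 to 1.60 in Sham.

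For the other members the difference between the injuries was within the spread of the arrays. Tibial-SNI minus Sural-SNI was 0.05 (95% interval −0.67 to 0.76) for miR-92a, −0.02 (−0.69 to 0.66) for miR-19b and −0.15 (−1.28 to 0.97) for miR-19a, and the sign of the first of these, like that of miR-19b, turned with the reference. The distance of miR-19a to miR-19b was 3.98 ± 0.48 cycles in Sham, 3.48 ± 0.20 in Sural-SNI and 3.62 ± 0.21 in Tibial-SNI, with an exact permutation p of 0.371 between the injuries.

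MiR-20a lay above Sham in both L3-DRG arrays of Tibial-SNI and below it in both L4-DRG arrays. Its log2(fold change) was −0.17, 0.72, 0.07 and 0.11 in Sural-SNI and 1.18, 0.72, −1.82 and −0.18 in Tibial-SNI. The difference Tibial-SNI minus Sural-SNI was 0.67 in L3-DRG and −1.09 in L4-DRG. In the pairs of replicate 1 it was 1.35 and −1.89, and in those of replicate 2 −0.003 and −0.29. The change between the levels thus lay mostly in replicate 1, where the Ct of miR-20a in Tibial-SNI was 32.34 and 33.62. Over both numbers this change was −1.76 (SE 0.878), the second smallest p of the 154 miRs in this interaction. The limma adjusted p was 0.989, and 0.823 in the block fit. No member was called in the interaction (0 of 8, and 0% of all miRs, also at an unadjusted p under 0.05). At an unadjusted p under 0.05 miR-20a passed with MammU6 alone as the reference, 1 of 8 beside 1.3% of all miRs.

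MiR-20b, the close relative of miR-20a from the X chromosome, had a difference between the injuries that rested on 1 array. Its log2(fold change) was 0.83, −3.31, −0.24 and −0.44 in Sural-SNI and 1.20, 0.76, −0.67 and −0.36 in Tibial-SNI. The low value was that of L3-DRG Sural-SNI replicate 2, with a Ct of 31.2, where replicate 1 minus replicate 2 was −0.89 cycles as against 2.88 to 4.27 in the other 5 group and level pairs. Tibial-SNI minus Sural-SNI was 1.02 (95% interval −0.93 to 2.97), with an exact permutation p of 0.429, and the smallest difference with 1 array left out was 0.01. In the interaction, miR-20b passed an unadjusted p under 0.05 without L3-DRG Sural-SNI replicate 1 (1 of 8, and 1.95% of all miRs; limma adjusted p of 0.0849), a fit in which the low array is the only L3-DRG Sural-SNI sample and is assumed to vary like the others.

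Of the members from the Mcm7 locus, miR-106b had a log2(fold change) of 0.26, 0.23, −0.61 and 0.24 in Sural-SNI. In Tibial-SNI it was −1.58, 1.03, −0.46 and −0.44, so that both L3-DRG arrays lay on opposite sides of 0. The means were 0.03 ± 0.43 and −0.36 ± 1.07, and the difference of −0.39 had an exact permutation p of 0.629.

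MiR-93, its neighbour on the precursor, had the widest spread of log2(fold change) among the members. Its Ct in L3-DRG Sham was 28.9 in replicate 1 and 32.5 in replicate 2. In the other 5 pairs of group and level replicate 1 was above replicate 2, by 2.80 to 4.81 cycles, and in L3-DRG Sham only 7.79% of the 154 miRs had the order seen for miR-93. From the Ct table as deposited, the log2(fold change) of miR-93 was −2.94, 4.54, 0.79 and −0.18 in Sural-SNI and −2.54, 4.64, 0.99 and −0.32 in Tibial-SNI. Both L3-DRG arrays of replicate 1 were thus far below Sham and both of replicate 2 far above it.

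The fold changes the authors deposited separately matched these Ct values for miR-93 in 4 of 8 SNI arrays (within 0.01 on the log2 scale). They matched in 8 of 8 when the miR-93 Ct of each L3-DRG Sham array was taken with the reference Ct of the other L3-DRG Sham array. The deposited fold changes thus took the Ct of 28.9 with the references of replicate 2, and that of 32.5 with those of replicate 1. For the other 7 members all 8 matched with each array's own references. Exchanging the 2 L3-DRG Sham Ct values of miR-93 between the arrays, which gives them the order of the other 5 pairs, left the match at 4 of 8. That match cannot judge the exchange, as the deposited fold changes were formed with each Ct at its deposited number. With that exchange, the log2(fold change) was 0.69, 0.92, 0.79 and −0.18 in Sural-SNI and 1.08, 1.02, 0.99 and −0.32 in Tibial-SNI, above Sham in 6 of 8 arrays. The means stayed at 0.55 and 0.69, since both Sham values enter each, and the SD fell from 3.09 to 0.50 (Sural-SNI) and from 3.01 to 0.68 (Tibial-SNI). Tibial-SNI minus Sural-SNI was 0.14 either way. Both injuries subtract the same Sham array in each pair, so the exchange cannot change this difference. The exact permutation p was 0.857 as deposited and 0.543 after the exchange, but its splits are unpaired, so the Sham values enter its spread. In the block fit the SE was 0.191 and the limma adjusted p 0.861, before and after the exchange. In the block fit after the exchange Tibial-SNI was 0.69 above Sham (SE 0.263), with a limma adjusted p of 0.376. The exchange was made after the values had been seen. Which array each of the 2 values was measured in is not stated in the sources used here, and only the matches above bear on it.

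**Figure D5:**
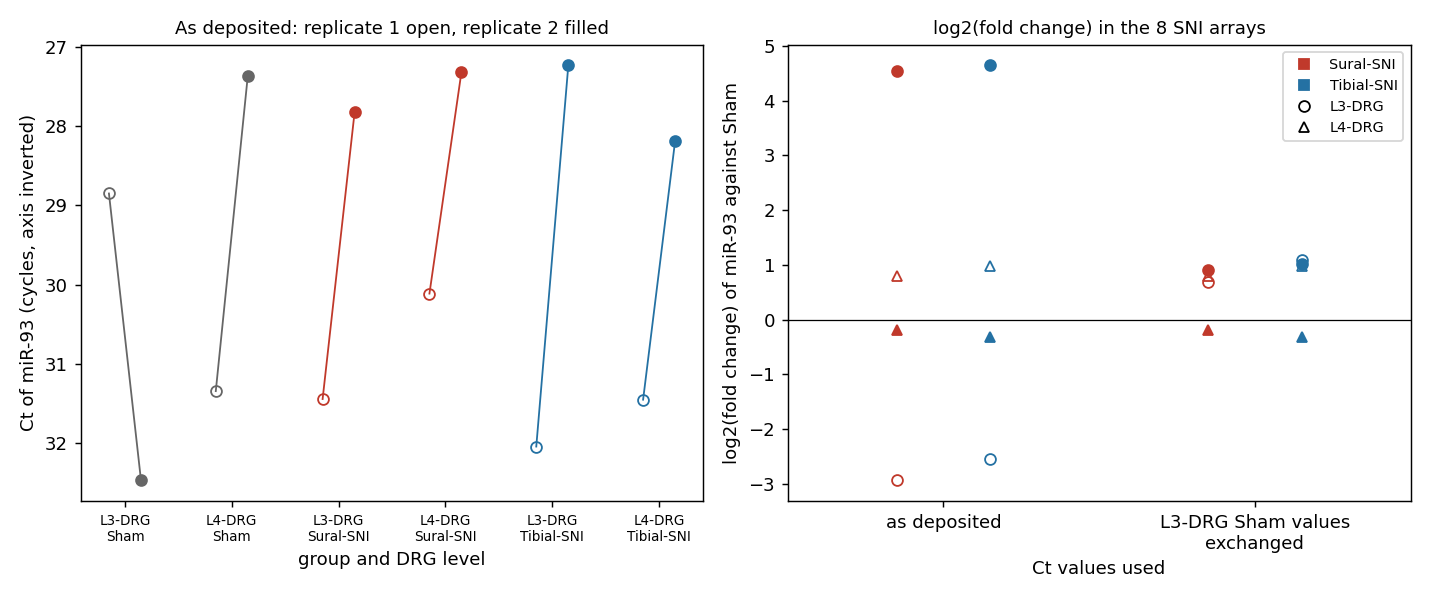
Ct of miR-93 as deposited (left, cycles, axis inverted; replicate 1 open, replicate 2 filled, joined within a group and level) and its log2(fold change) in the 8 SNI arrays with the deposited Ct and with the 2 L3-DRG Sham values exchanged (right). L3-DRG Sham alone slopes the other way, and after the exchange the 8 values lie between −0.32 and 1.08.

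Between the DRG levels no member was called by limma (0 of 8 in L4-DRG against L3-DRG, 0% of all miRs, with 0 of 8 and 1.95% at an unadjusted p under 0.05). The differences in −ΔCt of L4-DRG minus L3-DRG were 0.35 for miR-19a, 0.10 for miR-19b, 0.41 for miR-20a, 0.25 for miR-20b, −0.16 for miR-92a, 0.13 for miR-93, 0.36 for miR-106a and 0.11 for miR-106b, all smaller than the spread between arrays. The level was higher in L4-DRG in 5 of 6 pairs of the same group and number for miR-20a and miR-106a, and in 2 to 4 of 6 for the other 6 members. With the pair as a block the SE of miR-106a fell from 0.862 to 0.187, with an adjusted p of 0.777, and no member passed an unadjusted p under 0.05 (5.84% of all miRs). The median over all miRs was −0.01.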

How the data were processed

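The authors ran TaqMan rodent microRNA cards for 40 cycles with no Ct limit and deposited unnormalized Ct values of the miRs found in every one of the 12 arrays (160 wells: 154 miRs, 6 reference wells). They also deposited the fold change of each SNI array, a linear ratio, which was used here only to find which Sham value had been subtracted. The −ΔCt was taken against the mean of MammU6 (4 wells averaged), snoRNA135 and U87, and log2(fold change) against Sham of the same ganglion and replicate number, which gave 98.9% of the deposited fold changes within 0.01. Tibial-SNI and Sural-SNI were compared on the log2(fold change), unpaired, and each SNI group with Sham, and L4-DRG with L3-DRG, on the −ΔCt of 12 arrays with level or group as a covariate, by limma 3.58.1 in R 4.3.3 over all 154 miRs with Benjamini-Hochberg adjustment. The fits were tested on simulated data. Exact permutation tests of single members used R. Those of Ct distances, and the plots, used Python 3.11.15. Arrays of the same level and number had deviations from their group means that correlated with r of 0.46 to 0.81 across miRs (12 pairs), and those of the same level but different numbers with −0.70 to −0.56, so the numbers pair the samples and a block was fitted as an alternative. Alternatives were other references, Ct limits of 35 and 32, a variance trend, the mean of both Sham arrays, level as a term, one fit of all 12 arrays, a correlation between levels, the methods' test without moderation, the block, and each array left out. The number of arrays limits the precision, as a Ct gives no molecule count. The text names all 8 members, the relatives by cluster or seed, the references and the 5 miRs most like the members. The members, the lists and the rule were chosen with earlier results of these data known.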

Additional observations from a re-analysis of the deposited data

Results flagged for a closer look

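In 40 groups of 4 values of −ΔCt or log2(fold change) of the 8 members, 2 had an array far from the others by Dixon's ratio at the 95% level. Chance gives about 1 in 20 where the values of a group share one spread. The groups of −ΔCt hold both numbers and the shift between them, and both flags were in log2(fold change). The count of 2 in 40 can therefore not be set against that rate. For miR-19a in Tibial-SNI, L4-DRG replicate 2 had a log2(fold change) of −0.87, while the next value was 0.90 (ratio 0.873). For miR-106b in Sural-SNI, L4-DRG replicate 1 had −0.61, while the next value was 0.23 (ratio 0.966).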

How the results depend on the processing

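No member was called at an adjusted p under 0.05 in any comparison under any alternative that could be run. Between the injuries, members were also counted at the study's one-tailed p, read in either direction. The count fell from 1 to 0 with snoRNA135 alone, with U87 alone, with the mean of both Sham arrays of a level and when all 12 arrays were fitted together. It ranged from 0 to 2 with 1 array left out (0 without L3-DRG Sural-SNI replicate 2 or L4-DRG Tibial-SNI replicate 2, 2 without L3-DRG Tibial-SNI replicate 2). The replicate block left it at 1 and changed no adjusted call. The causes of the changes in count were not tested. Of 834 differences of members and miR-17 recomputed, 105 changed sign. A sign could turn only with other references or with an array left out. In this balanced design the remaining alternatives, the block among them, leave each difference as it was, so they do not test its sign. Under a Ct of at most 32 the members that exceed it in an array have no value.

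With other references, Tibial-SNI minus Sural-SNI was 0.0443, 0.0715 and 0.0579 for miR-19b and 0.0255, 0.0528 and 0.0391 for miR-17 (snoRNA135, U87, both), −0.11 and −0.0342 for miR-92a (MammU6, mean of all miRs) and −0.0161 for miR-93 (MammU6). Sural-SNI minus Sham was −0.0408, −0.00375 and −0.12 for miR-106b (snoRNA135, snoRNA135 with U87, mean of all miRs). Tibial-SNI minus Sham was −0.0253 for miR-19b and −0.00402 for miR-20b (mean of all miRs), 0.0675 and 0.0169 for miR-20a and 0.0522 and 0.00162 for miR-106a (U87, snoRNA135 with U87). L4-DRG minus L3-DRG was −0.0748 for miR-19b, −0.0457 for miR-93, −0.0683 for miR-106b and −0.15 for miR-17 (snoRNA135), −0.0679 for miR-17 (snoRNA135 with U87) and 0.0267 for miR-92a (MammU6).

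The differences that changed sign with an array left out had these ranges. Those against Sham and between levels come from fits with no term for the number. Leaving out 1 array there leaves the numbers unequal, so the ranges of those fits also carry the shift in −ΔCt between the numbers. That shift (replicate 1 minus replicate 2) was −4.72 for miR-20a, −2.73 for miR-17 and −2.68 for miR-106a. Tibial-SNI minus Sural-SNI ranged from −0.37 to 0.33 for miR-19a, from −0.16 to 0.18 for miR-19b, from −0.73 to 0.39 for miR-20a, from −0.0797 to 0.27 for miR-92a, from −1.18 to 1.47 for miR-93, from −0.86 to 0.0926 for miR-106b, from −0.20 to 0.0745 for miR-17. Sural-SNI minus Sham ranged from −0.0107 to 0.48 for miR-19b, from −0.80 to 1.30 for miR-20a, from −0.46 to 1.42 for miR-93, from −0.0894 to 1.11 for miR-106a, from −0.14 to 0.29 for miR-106b, from −0.0746 to 1.09 for miR-17. Tibial-SNI minus Sham ranged from −1.02 to 1.30 for miR-20a, from −0.32 to 0.93 for miR-20b, from −0.33 to 1.56 for miR-93, from −0.64 to 0.53 for miR-106a, from −0.87 to 0.16 for miR-106b, from −0.11 to 1.06 for miR-17. L4-DRG minus L3-DRG ranged from −0.0666 to 0.23 for miR-19b, from −0.33 to 1.30 for miR-20a, from −0.15 to 0.71 for miR-20b, from −0.55 to 0.71 for miR-93, from −0.0338 to 0.77 for miR-106a, from −0.24 to 0.45 for miR-106b, from −0.38 to 0.41 for miR-17.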
